A study of Rattus norvegicus with 85 samples.

Results

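The samples described here are the adult amygdala (AMY) of female rats that were, or were not, exposed to stress in adolescence. They are 12 of the 85 samples of the series, 5 labelled Control and 7 labelled PRS (pre-reproductive stress), and were chosen by their labels alone: AMY, P60, F0 (the generation that was itself exposed) and treatment. All came from female Sprague-Dawley rats. PRS rats went through a 7-day unpredictable stress procedure in adolescence, control rats did not, and both were killed 2 weeks after it ended. The comparison asks whether this stress changed A-to-I RNA editing in the adult AMY. Whole cages were assigned to a treatment, and the labels do not tell which samples shared a cage. The tests treated each sample as independent, so p-values may be too small if cage-mates were alike. The AMY was taken as bilateral punches, which hold several cell types.

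The assay, mmPCR-seq, amplifies selected transcript stretches by multiplex PCR on a microfluidic chip and sequences the products. The editing level is the percentage of the reads covering a site in which the A is read as G. A site was used in a sample with at least 50 reads and tested with at least 3 such samples in each group. This left 142 of the 146 sites of the study, in 65 genes and at 7 intergenic sites, and 119 of the 142 were measured in every one of the 12 samples. Control samples had between 210835 and 3270097 reads in total at the 146 sites (median 1885251), and PRS samples between 171756 and 1455755 (median 927532). A level of 50% seen in 50 reads carries a 95% Wilson interval of 36.6% to 63.4%, and 3 edited reads make 6%. Since PCR products were counted and no molecular identifiers were used, these limits cover counting error only. Because only chosen amplicons were read, the tissue label could not be checked against marker genes.

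A-to-I editing is carried out by the ADAR enzymes, which deaminate adenosine to inosine in double-stranded RNA. Inosine is read as guanosine, so an edited codon can encode another amino acid, as in glutamate and serotonin receptors, while editing in a 3'UTR leaves the protein sequence as it is. The AMY is known for its part in fear learning and responses to stress, and the serotonin receptor Htr2c, whose editing weakens its coupling to G proteins, is often studied there.

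Each amplicon is defined by its primer pair. The pairs for Igf1 and for the coding stretch of Htr2c are shown, since these amplicons hold the site with the clearest separation of the groups and the sites of most interest to the stress question. Each is written 5′ to 3′, with the common tail used for barcoding in lower case and the part that matches the rat transcript in capitals:
Igf1, primer 1: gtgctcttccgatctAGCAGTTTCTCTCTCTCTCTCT
Igf1, primer 2: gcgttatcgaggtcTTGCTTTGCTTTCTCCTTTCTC
Htr2c, primer 1: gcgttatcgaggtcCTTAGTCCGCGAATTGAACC
Htr2c, primer 2: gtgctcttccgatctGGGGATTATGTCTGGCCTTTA
The capitals of the first Igf1 primer end in 7 repeats of CT.

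No site changed with stress after adjustment. A two-sided, exact Mann-Whitney U test with Benjamini-Hochberg adjustment, made separately over the 40 nonsynonymous and the 102 other sites, called 0 of 142 sites (0%) at an FDR of 0.1, with a lowest adjusted p of 0.258. Without adjustment, 3 of 142 sites (2.11%) had a p under 0.05, all outside coding sequence: one in the 3'UTR of Igf1, one in the 3'UTR of Selenop and the intergenic site IG5. With 5 samples against 7 the smallest p the exact test can give is 0.00253. A lone site at that value has an adjusted p of 0.101 among the nonsynonymous and 0.258 among the other sites, so 2 or 3 sites at the smallest p would have been needed for a call.

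Most differences were small. The difference in means, PRS minus control, was within 1 percentage point at 96 of the 142 sites and within 5 points at 136. The mean was lower in PRS at 80 sites (56.3%) and higher at 62, and the median difference over all sites was -0.0986 points. The exact 95% interval of the shift lay wholly within 5 points of 0 at 101 sites and within 2 points at 64. These counts include sites edited very little. At 36 of the 142 sites the mean level was under 1%, which leaves little room for a difference in points.

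**Figure D1:**
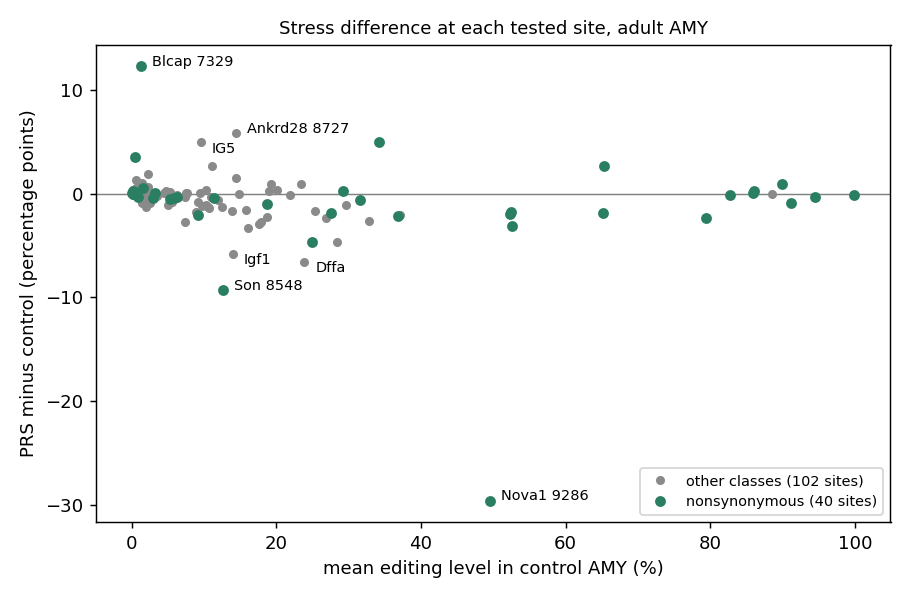
Mean editing level in control AMY (x axis, %) against the difference in means, PRS minus control (y axis, percentage points), for the 142 tested sites, with nonsynonymous sites in green and all other classes in grey. Of the sites, 136 lie within 5 points of 0, and Nova1 9286 and Blcap 7329 lie farthest below and above it.

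Igf1 encodes insulin-like growth factor 1, a growth factor that acts on neurons and glia. Its site lies in the 3'UTR at chromosome 7, position 24605672 of build rn4, on the plus strand. The editing level was 17.2, 13.6, 12.6, 14.2 and 12.6% in the 5 control samples. In the 7 PRS samples it ranged from 4.1% to 10.2%, with a median of 9.5%. Every PRS sample was below every control sample, and Igf1 was the 1 site of 142 (0.704%) at which the groups did not overlap.

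The mean Igf1 level was 14.0% ± 1.89 (SD, n = 5) in control samples against 8.21% ± 2.56 (SD, n = 7) in PRS samples, a difference of -5.83 points. The Hodges-Lehmann shift, the median of all differences between a PRS and a control sample, was -4.70 points with an exact 95% interval from -8.7 to -3.1. The exact Mann-Whitney p was 0.00253, the smallest possible, and the adjusted p was 0.258, so the difference was not called. Reads at the site numbered 634 to 7593 per sample. By counting error alone, the control sample at 12.6% with 634 reads (95% Wilson interval 10.3% to 15.4%) overlapped the PRS sample at 10.2% with 2667 reads (9.14% to 11.4%).

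The samples fell into sets of 48 consecutive library numbers. Since the Igf1 groups do not overlap, the difference had to be negative in each set, and its size is given as a description. In the first set it was -5.69 points, 3 control samples against 5 PRS samples, and in the fourth it was -6.6 points, 2 against 2. Igf2, the related growth factor, had 25.4% ± 4.31 (SD, n = 5) in control samples against 23.7% ± 3.94 (SD, n = 7) in PRS samples at its 3'UTR site (exact p = 0.530), with an interval of the shift from -7.5 to 3.8 points.

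Selenop encodes selenoprotein P, which carries selenium in plasma and brain. Its 3'UTR site (chromosome 2, position 52461816, plus strand) had 4.2, 5.1, 6.3 and 4.4% in the 4 control samples with enough reads. In PRS it ranged from 2.9% to 5.7%, with a median of 3.9%, and the groups overlapped through 1 PRS sample at 5.7%. The difference in means was -1.10 points, with an interval of the shift from -2.4 to -0.2 (exact p = 0.0364, adjusted p = 1).

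IG5 is an intergenic site (chromosome 5, position 145407422). It had 10.1, 14.0, 5.3, 6.3 and 12.3% in control, and the PRS samples lay between 10.3% and 20.1%, with a median of 14.4%. The mean was 4.93 points higher in PRS, with an interval of the shift from 0.2 to 9.6 points (exact p = 0.0429, adjusted p = 1). Of the 7 intergenic sites tested, the other 6, among them IG4 at position 145407421, differed by less than 2 points. At Selenop and IG5 the unadjusted p rose above 0.05 in the permutation test of means, to 0.1 and 0.0530, and with labels permuted within the library-number sets, to 0.0873 and 0.0685. It also rose above 0.05 at both with reads pooled. On the logit scale the permutation test of means kept IG5 under 0.05 but not Selenop. R's default Mann-Whitney form kept Selenop under 0.05 but not IG5. With 1 sample left out, the exact p stayed under 0.05 in 5 of 12 tests at IG5 and in 2 of 12 at Selenop. Neither of these 2 adds to the Selenop result. In 1 of them the sample left out was control replicate 3, which had too few reads at Selenop to be used, so the test was unchanged. The other left out PRS replicate 14, the only overlapping PRS sample, which fixed the exact p at 0.00952, the smallest possible.

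**Figure D2:**
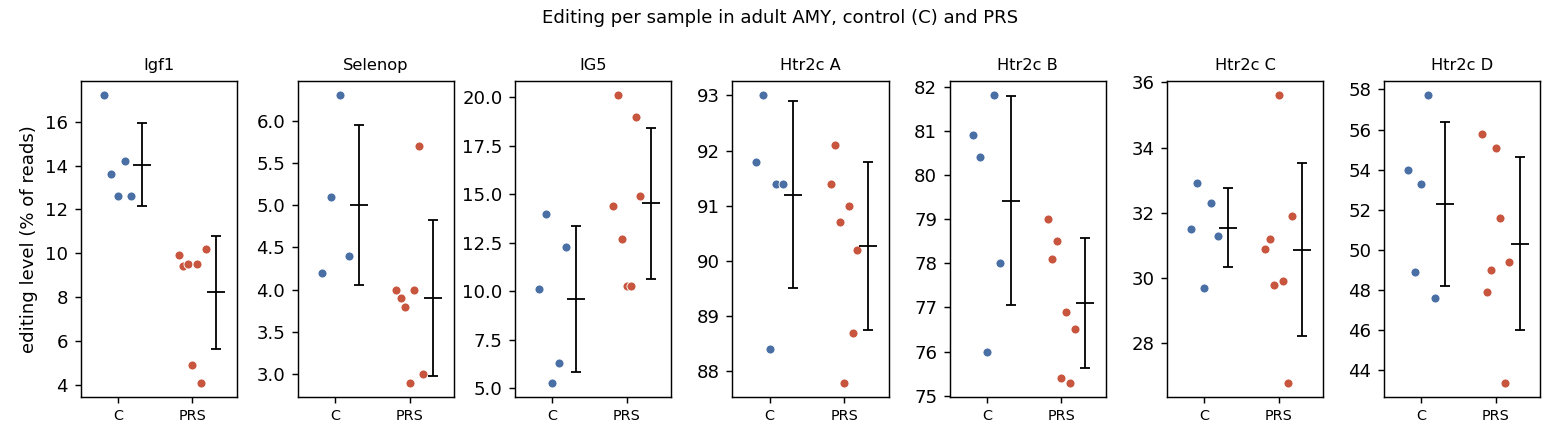
Editing level (y axis, % of reads, scaled separately in each panel) of each control (C, blue, n = 5, or 4 for Selenop) and PRS (red, n = 7) AMY sample at the 3 sites with an unadjusted p under 0.05 and at Htr2c A to D, with the mean and SD in black. At Igf1 all PRS samples lie at or under 10.2% and all control samples at or over 12.6%, and at the other 6 sites the groups overlap.

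The study marked 29 sites in learning- and stress-related genes for a closer look, and all 29 were measured here. None had an unadjusted p under 0.05 (lowest exact p = 0.149, at Htr2c B), beside 2.11% of all tested sites. The mean was lower in PRS at 18 and higher at 11, with a median difference of -0.137 points, beside -0.0986 over all tested sites. The interval of the shift lay wholly within 5 points of 0 at 20 of the 29.

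Htr2c, a G protein-coupled serotonin receptor, carries the coding sites A to D within 1 short stretch (chromosome X, positions 31041849, 31041847, 31041842 and 31041837, minus strand), which the primer pair above amplifies. The same reads cover the 4 sites, so these are not independent. Site A, which changes Ile to Val, had 91.8, 93.0, 88.4, 91.4 and 91.4% in control samples, and from 87.8% to 92.1% in PRS samples, with a median of 90.7%. The groups overlapped over most of their range. The difference in means was -0.929 points with an interval of the shift from -3.1 to 0.7 (exact p = 0.264).

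Site B, which changes Ile to Met, had 80.9, 80.4, 76.0, 81.8 and 78.0% in control samples, and from 75.3% to 79.0% in PRS samples, with a median of 76.9%. Here 3 of the 5 control samples were above all PRS samples, and the other 2 lay among them. The difference in means was -2.32 points with an interval from -5.1 to 0.5 (exact p = 0.149). Without the control sample with the fewest reads (replicate 11), the one at 76.0%, the difference was -3.18 points (exact p = 0.0424), but in the other 11 exact tests with 1 sample left out p stayed over 0.05, at up to 0.315. Without that sample and the PRS sample with the fewest reads (replicate 6), a setting chosen after seeing the data, the exact p was 0.0667.

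Sites C and D, which change Asn to Ser and Ile to Val, differed less than their spread. Site C had 31.5% ± 1.21 (SD, n = 5) in control samples against 30.9% ± 2.65 (SD, n = 7) in PRS (exact p = 0.432), with an interval of the shift from -3.0 to 2.2 points. Site D had 52.3% ± 4.08 (SD, n = 5) and 50.3% ± 4.30 (SD, n = 7), with an interval from -8.3 to 2.7 points (exact p = 0.755). Of the 6 Htr2c sites, the 4 coding sites and 2 in the 3'UTR, 5 had a lower mean in PRS, beside 56.3% of all tested sites. The 4 coding sites share reads, so the 6 are not independent.

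AMPA receptor subunits carry fast excitatory transmission, and editing of Gria2 at the Q/R site sets their calcium permeability. That site was edited almost fully, 99.92% in control and 99.83% in PRS samples, with an interval of the shift from -0.3 to 0.0 points. The R/G sites, which change how fast receptors recover from desensitisation, had 65.2% ± 6.21 (SD, n = 5) in control samples against 63.3% ± 5.13 (SD, n = 7) in PRS at Gria2, 65.4% ± 4.33 (SD, n = 4) and 68.0% ± 3.60 (SD, n = 7) at Gria4, and 94.5% ± 0.802 (SD, n = 5) and 94.1% ± 0.923 (SD, n = 7) at Gria3. Their directions thus differed between subunits, and the lowest exact p over the 10 AMPA receptor sites was 0.265. The synonymous sites Gria2 Q and Gria3 L had differences of -1.11 and -0.226 points, and Gria2 L, Gria4 L and Gria3 K had mean levels between 0.371% and 1.78%.

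Kainate receptor subunits were as close. The Q/R site, in the channel pore, had 86.0% ± 1.88 (SD, n = 5) in control samples against 86.2% ± 1.98 (SD, n = 7) in PRS samples at Grik2, with an interval of the shift from -2.8 to 2.9 points. At Grik1 the level was 52.5% ± 3.36 (SD, n = 5) and 50.7% ± 4.48 (SD, n = 7), with an interval from -7.3 to 4.1 points. The Y/C and I/V sites of Grik2 differed by 0.0114 and -0.106 points, and the Met/Val, G and E sites by -0.314, 0.0257 and 0.117 points. The 7 kainate receptor sites had a median difference of 0.0114 points.

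Gabra3 encodes the alpha-3 chain of an inhibitory GABA receptor and is edited in a membrane-spanning segment. Its level was 89.9% ± 2.46 (SD, n = 5) in control samples against 90.8% ± 2.05 (SD, n = 7) in PRS samples (exact p = 0.458), with an interval of the shift from -1.9 to 3.2 points. The voltage-gated potassium channel Kcna1, in which editing speeds recovery from inactivation, had 18.8% ± 4.26 (SD, n = 5) and 17.8% ± 3.33 (SD, n = 7). The calcium-activated potassium channel Kcnma1 differed by -0.391 points. With the 3 sites of the calcium channel Cacna1d, all 5 channel sites had a lower mean in PRS, beside 56.3% of all tested sites, with differences from -2.17 to -0.391 points and a lowest exact p of 0.237. Only 1 primer pair is listed for Cacna1d, so its 3 sites are not independent. With 1 sample left out, the difference turned positive at Kcna1 (up to 0.121 points) and at Kcnma1 (up to 0.0133 points).

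Cadps, which primes vesicles for release, had 29.2% ± 3.14 (SD, n = 5) in control samples against 29.5% ± 2.39 (SD, n = 7) in PRS samples at its nonsynonymous site. Flna, an actin cross-linker, had 34.3% ± 4.73 (SD, n = 5) in control samples against 39.2% ± 7.15 (SD, n = 7) in PRS samples, with an interval of the shift from -3.7 to 13.1 points (exact p = 0.202). At Flna the spread between samples leaves room for a difference of several points.

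**Figure D3:**
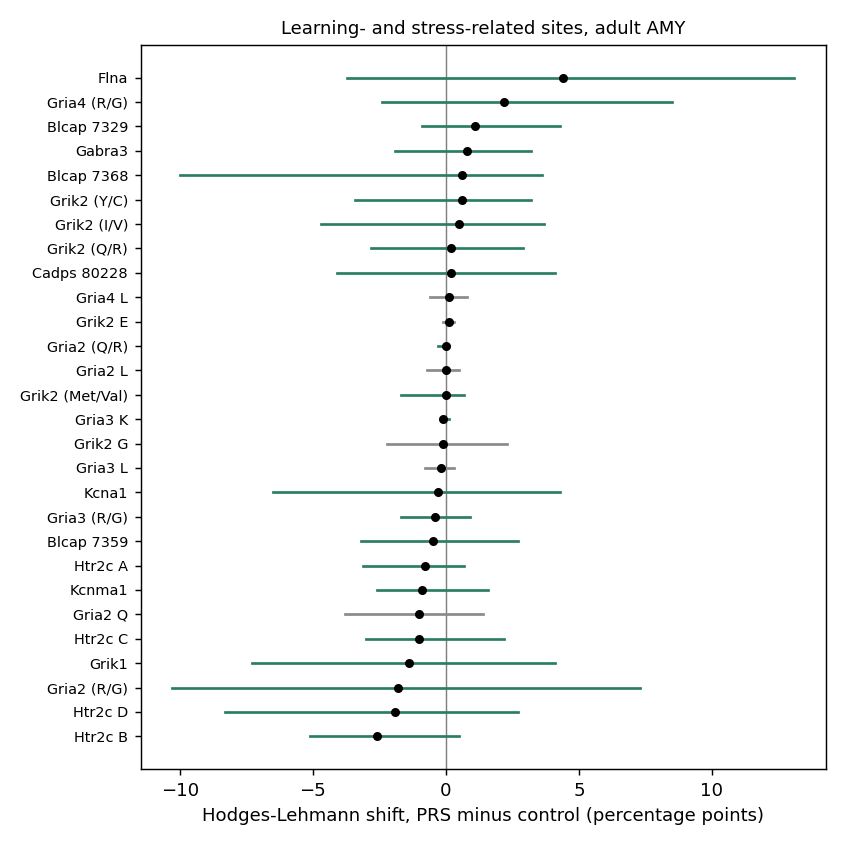
Hodges-Lehmann shift (points) with its exact 95% interval (lines), PRS minus control in percentage points (x axis), at 28 of the 29 learning- and stress-related sites (y axis), with nonsynonymous sites in green and synonymous sites in grey. All 28 intervals hold or touch 0, and 20 lie wholly within 5 points of it.

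Adarb1 encodes ADAR2, which edits its own transcript. Its 4 sites, which the files class as 5'UTR, lie at positions 11709472, 11709485, 11709486 and 11709490 of chromosome 20. All 4 had a lower mean in PRS, with differences of -2.09, -2.33, -0.0857 and -0.809 points in that order, beside 56.3% of all tested sites that were lower. The 4 sites lie close together in the transcript, so they are not independent.

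The smallest of these p-values was at Adarb1 9490, named by the last digits of its position. Its level was 6.1, 5.5, 4.1, 5.8 and 5.4% in control samples, and from 2.9% to 5.3% in PRS samples, with a median of 4.8%. Of the control samples, 4 were above all PRS samples and the fifth, the one with the fewest reads, lay among them. The interval of the shift ran from -1.7 to 0 points (exact p = 0.0530). Without that control sample (replicate 11) the groups no longer overlapped. The exact p was then 0.00606, which is the smallest possible and was fixed by leaving out the only overlapping control sample. In the other 11 exact tests with 1 sample left out it stayed over 0.05, at up to 0.121. Without control replicate 11 and PRS replicate 6, a setting chosen after seeing the data, the exact p was 0.00952, again the smallest possible. No site passed the FDR in either setting.

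By textbook preference, sites A and B of Htr2c, Azin1 and the Blcap sites are edited mainly by ADAR1, while the Q/R sites of Gria2 and Grik2, Htr2c D, Kcna1, Flna and the Adarb1 sites are edited mainly by ADAR2. Of the 6 ADAR1 sites 4 had a lower mean in PRS, with a median difference of -0.609 points, and of the 9 ADAR2 sites 7 did, with a median of -0.809 points. None of either list had an unadjusted p under 0.05. Of all tested sites 56.3% were lower, and the median over them was -0.0986 points. The 9 ADAR2 sites include the 4 Adarb1 sites, which were all lower and are not independent. Sites A and B of Htr2c, on the ADAR1 list, share reads.

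By class, 31 of the 71 sites in 3'UTRs had a higher and 40 a lower mean in PRS, with a median difference of -0.107 points. The 40 nonsynonymous sites were higher at 15 and lower at 25, with a median of -0.302 points. Of the 16 sites in RNA-binding and splicing genes, such as Nova1 and Son, 10 were higher and 6 lower, with a median of 0.0336 points. The 6 sites in genes for vesicle release and endocannabinoid synthesis (Cadps and Dagla among them) were evenly divided, and of the 2 sites in microglia and macrophage genes, Mpeg1 and Entpd1, 1 was higher and 1 lower.

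The mean level over the 119 sites measured in every sample was 15.9, 15.3, 16.6, 16.6 and 15.3% in control samples and ranged from 14.9% to 16.3% in PRS samples, with a median of 15.6%. The difference in means was -0.318 points, with an interval of the shift from -1.21 to 0.646 points (exact permutation p = 0.403). In the 2 sets of library numbers it was -0.258 and -0.456 points.

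The largest differences in means came from sites whose levels varied widely between samples of one group. The splicing regulator Nova1 at position 9286 (named by its last digits) had 97.2, 0.1 and 51.4% in the 3 control samples with enough reads, and from 0% to 92.1% in PRS samples, with a median of 1.4%. The groups covered the same range, and the difference of -29.6 points had an interval of the shift from -97.1 to 40.7 (exact p = 0.408). The other 3 Nova1 sites had at most 0.9% in all 12 samples.

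Single samples set the means at Son, which encodes a splicing cofactor, and at Blcap, a small membrane protein. Son 8548 had 53.0, 0.2, 3.0, 4.7 and 2.5% in control, and PRS samples lay between 0.3% and 5.2%. In the control sample at 53.0%, with 13759 reads, the other 7 Son sites had 0% to 1.5%. Blcap 7329 had at most 3.4% in control samples and 82.1% with 2870 reads in 1 PRS sample, while the other 6 PRS samples had 0.2% to 4.3%. In that PRS sample the other 2 Blcap sites had 3.3% with 515 reads and 11.1% with 262 reads, within the range of the other samples. Most of the 2870 reads were thus not counted at these sites, whose levels cannot be used to check them. Without that PRS sample the difference at Blcap 7329 was 0.85 points, against 12.3 with it.

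Dffa, an inhibitor of a DNA fragmentation factor, had 26.0, 0.1, 18.1 and 51.3% at its intronic site in control samples and from 0.2% to 43.3% in 6 PRS samples (exact p = 0.914). Ankrd28 8727, in a 3'UTR that holds 20 of the tested sites, had 15.4, 1.2, 20.2 and 20.8% in control samples and from 16.8% to 32.8% in PRS samples (exact p = 0.648). Of the 20 Ankrd28 sites, 10 had a higher and 10 a lower mean in PRS. An SD over 10 points in at least 1 group was found at 8 of the 142 sites, and an SD under 3 points in both groups at 100.

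**Figure D4:**
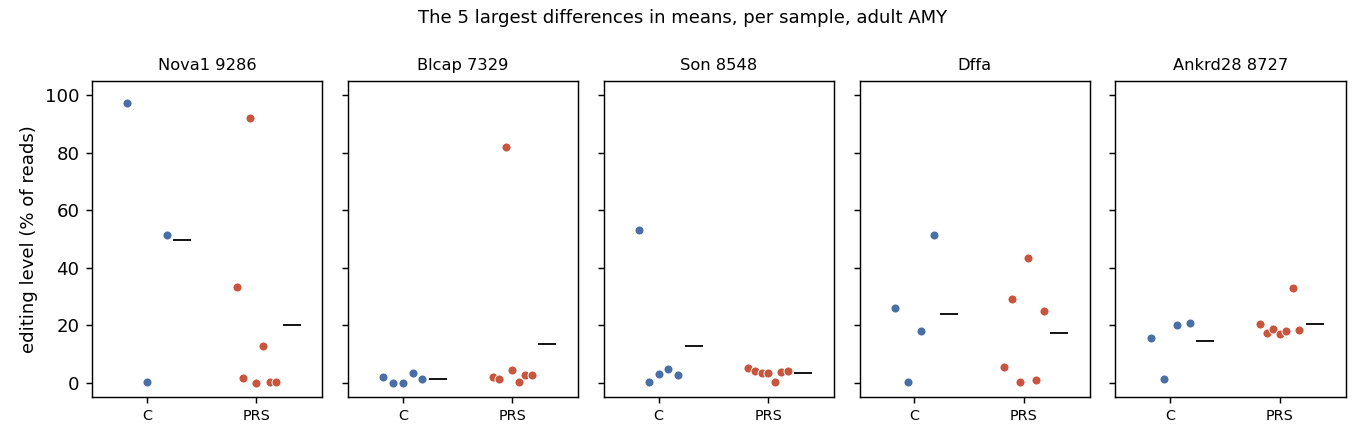
Editing level (y axis, % of reads) of each control (C, blue) and PRS (red) AMY sample at the 5 sites with the largest absolute difference in means, with the group mean as a black dash. At Son 8548 and Blcap 7329 the difference comes from 1 sample, at 53.0% and 82.1%, and at Nova1 9286 levels run from 0% to over 90% within a group.

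The same contrast was measured in the prefrontal cortex (PFC) of adult rats, 5 control and 6 PRS samples, and the difference between the effects was tested by exact permutation of the treatment labels within each region. Of 138 sites tested in both regions, 0 (0%) passed an FDR of 0.1 (lowest adjusted permutation p = 0.414), and 7 (5.07%) had an unadjusted p under 0.05. The labels do not tell whether AMY and PFC samples came from the same rats. All PFC samples were in the first set of library numbers, whereas 4 AMY samples were not.

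At Htr2c A the mean differed by -0.929 points between PRS and control in AMY and by 4.10 points in PFC, and the effects differed by -5.03 points (exact permutation p = 0.0169, adjusted p = 0.414). PFC control samples had 91.5, 90.4, 82.9, 91.5 and 89.2%, and PFC PRS samples ranged from 90.4% to 98.3%. At Igf1 the PFC difference was 1.32 points, with control samples at 7.0, 18.1, 6.7, 6.6 and 2.4% and PRS samples between 5.2% and 11.8%. The Igf1 effects differed by -7.15 points between the regions (exact permutation p = 0.0262, adjusted p = 0.848). The spread in control PFC, an SD of 5.87 points, was wider than the 1.89 points in control AMY. Reads at Igf1 were fewer in some PFC samples. The control PFC sample at 2.4% had 2 edited of 85 reads and that at 18.1% had 657 reads, while control AMY samples had 634 to 7593. Whether depth or region set the spread was not tested.

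The smallest p was at Gria3 L, a synonymous site. Levels were 3.5, 3.3, 3.5, 3.5 and 3.9% in control AMY and 2.6% to 3.8% in PRS AMY, and 2.4, 2.9, 2.6, 2.7 and 2.4% in control PFC and 2.8% to 4.2% in PRS PFC (exact permutation p = 0.00779, adjusted p = 0.541). The effect was -0.226 points in AMY and 0.733 points in PFC. At Hist2h2ab and Tm9sf1, a histone gene and a membrane protein gene, mean levels were under 1% in all 4 groups, and the effects differed by 0.863 and 0.138 points.

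**Figure D5:**
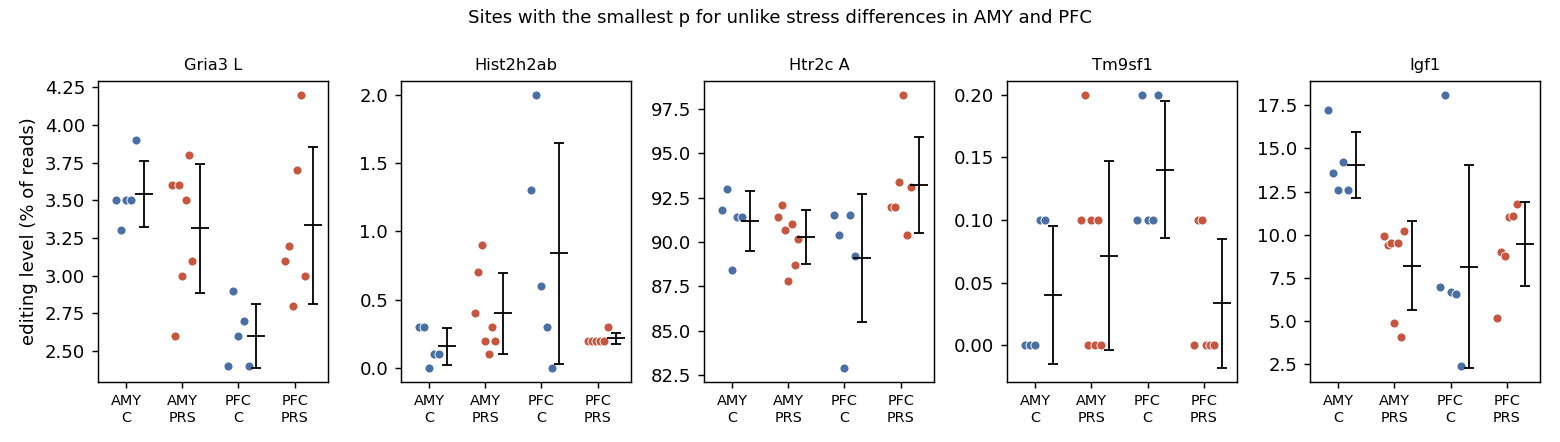
Editing level (y axis, % of reads, scaled separately in each panel) in control (C, blue) and PRS (red) samples of AMY (n = 5 and 7) and PFC (n = 5 and 6) at the 5 sites with the smallest p for unlike effects, with the mean and SD in black. At Gria3 L the groups overlap in both regions, in PFC through a PRS sample at 2.8% and a control sample at 2.9%. At Igf1 the AMY groups are apart while the PFC groups overlap.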

How the data were processed

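The mmPCR-seq samples used were adult AMY (5 control, 7 PRS) and, for one comparison, PFC (5 control, 6 PRS). The authors combined paired-end reads and mapped them with BWA samse to rat build rn4 with splice-junction sequences, and the processing notes of the labels also name SAMtools. The deposited tables give, per the file headers, read counts (all reads at each of 179 listed positions, and those reading G there), and their ratio as an editing fraction rounded to 3 decimals, with no minimum of reads applied.

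Levels were used as percent. The 146 sites of the study were analysed, with gene and site names from its site list, since the files give a few by transcript ID or older symbol. The members, gene lists and tests were chosen with earlier results of these data known. Each site with 50 reads in 3 samples of each group was tested with an exact two-sided Mann-Whitney U test (mid-ranks, every assignment of the labels), with Benjamini-Hochberg adjustment by class and an FDR of 0.1. Shifts are Hodges-Lehmann estimates with exact 95% intervals. Mean editing and effects across regions were tested by exact permutation. Named sites are the 29 learning- and stress-related sites, those with an unadjusted p under 0.05 or without overlap, the 5 largest differences, the 5 smallest p across regions and the Adarb1 sites. Others named, from the fixed gene groups and counts (Igf2, the Cacna1d and Htr2c 3'UTR sites, the lists by enzyme), were picked after their values were seen. Sets of 48 library numbers were read from the numbers in the deposited file names, which the labels do not explain.

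No 2 of the 12 AMY samples had the same counts, and all 66 pairs differed by more than read sampling (chi-square per site at least 12.1). This does not tell separate animals from repeat amplifications of one RNA, and samples were counted as the labels give them. The alternatives were R's default Mann-Whitney form, permutation of means (also on the logit scale), pooled reads, other adjustments, an FDR of 0.05, minimums of 200 or 1 reads, sites measured in every sample or with a mean of at least 1%, labels permuted within library sets, and each sample left out. Sites Psma3 1172 and 1177, Mcrs1 and Slco2a1 had too few samples, and 1 site of the list of 29 is counted but not reported singly here. The steps were tested on simulated data. Scripts ran in Python 3.11.15 with scipy 1.17.1, numpy 2.4.6 and pandas 2.3.3, and plots were drawn in matplotlib 3.10.9.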

Additional observations from a re-analysis of the deposited data

Results flagged for a closer look

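Within a group of 4 to 7 samples, 11 single samples stood apart from the rest of their group among 85 groups tested, where chance gives about 1 in 20. The groups are those of the named sites, of which 5 were named for the largest differences in means, and single samples can make such differences, so the number cannot be set against chance. Son 8548 was 53.0% in control replicate 2, against 0.2% to 4.7% in the other control samples, and 0.3% in PRS replicate 162, against 3.2% to 5.2%. PRS replicate 5 had 82.1% at Blcap 7329, against 0.2% to 4.3%, and 92.1% at Nova1 9286, against 0% to 33.1%. PRS replicate 6, the PRS sample with the fewest reads, had 7.1% at Grik2 (Met/Val) with 1645 reads, against 5.5% to 6.1%, while control replicate 11 had 7.7%. PRS replicate 6 also had 0.7% at Gria3 K, 7 edited of 1010 reads, against 0.2% to 0.4%. At Blcap 7359 it had 9.6% with 135 reads, against 0.1% to 4.2%. PRS replicate 14 had 5.7% at Selenop, against 2.9% to 4%, and 32.8% at Ankrd28 8727, against 16.8% to 20.3%. Control replicate 8 had 18% at Blcap 7368 with 322 reads, against 5.6% to 6.7%. Control replicate 11 is listed at 100% at Gria2 (Q/R), with 2190 of 2191 reads edited, and the other 4 control samples are listed 1 rounding step lower, so that it stood apart only through rounding.

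At 7 sites the effect of stress in AMY minus that in PFC had an unadjusted exact permutation p under 0.05, and none passed the FDR. The difference between the effects was -0.959 points at Gria3 L, 0.863 at Hist2h2ab, -5.03 at Htr2c A, 0.138 at Tm9sf1, -7.15 at Igf1, -6.25 at Htr2c 3UTR-1 and 14.7 at IG5. At IG5 1 PFC control sample was at 53.0%, and the other PFC samples ranged from 0% to 13.2%. At Htr2c 3UTR-1 the mean in control PFC was 10.9% ± 6.89 (SD, n = 5), against 15.8% ± 1.33 (SD, n = 5) in control AMY.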

How the results depend on the processing

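No site passed the FDR in any alternative run, and the lowest adjusted p was 0.129, with permutation of means and with pooled reads. Igf1 had an unadjusted p under 0.05 in all alternatives run, but for most of them this was fixed beforehand. With a sample left out, or the 2 with the fewest reads, it followed from its groups not overlapping. R's default form uses the same ranks, and other adjustments, FDRs, read minimums and sets of sites left its values unchanged. The number of sites with such a p, 3 by the exact Mann-Whitney test, was 1 with permutation of means and ranged from 1 (without control replicate 2 or PRS replicate 16) to 5 (without control replicate 3) when a sample was left out. Among the 29 learning- and stress-related sites it was 1 with reads pooled (Htr2c B), 1 without the 2 samples with the fewest reads (Htr2c C, a setting chosen after seeing the data), and 0 to 1 when a sample was left out (1, Htr2c B, without control replicate 11). Differences turned direction at the sites that follow, among them some of the largest (Nova1 9286, Dffa and Son 8548), and the cause was not tested. On the logit scale Grik2 (I/V) was 0.00766 and Blcap 7359 -0.732 (log odds). With reads pooled the differences in points were -0.00498 at Tm9sf1, 0.249 at Adarb1 9486, -0.228 at Grik2 G, 0.856 at Grik2 (I/V), 11.4 at Dffa, 4.11 at Nova1 9286 and -1.04 at Blcap 7359, which was -1.53 with at least 200 reads. Without the 2 samples with the fewest reads they were 0.125 at Adarb1 9486, -0.508 at Grik2 G, 0.6 at Grik2 (I/V) and -0.967 at Blcap 7359. With 1 sample left out, differences ran from -12.4 to 0.757 at Son 8548 (0.757 without control replicate 2), -14.5 to 2.58 at Dffa, -0.85 to 1.35 at Cadps 80228, -0.467 to 0.317 at Adarb1 9486, -2.10 to 0.121 at Kcna1, -1.10 to 0.0133 at Kcnma1 and -1.46 to 0.01 at Htr2c C. At Grik2 they ran from -0.446 to 0.654 (Q/R), -0.614 to 0.0357 (Met/Val), -0.639 to 0.661 (G), -0.579 to 0.873 (Y/C) and -0.77 to 0.78 (I/V), at Gria2 L from -0.257 to 0.0429, at Blcap 7359 from -0.987 to 0.611 and at Blcap 7368 from -3.26 to 0.876. Between AMY and PFC, the exact permutation p of Igf1 was 0.0773 with at least 200 reads, where PFC control replicate 29, with 85 reads, was left out. That of Tm9sf1 was 0.106 on the logit scale, 0.0649 without the 2 samples with the fewest reads, and 0.0624 without control replicate 2, 3 or 11. With labels permuted within library-number sets, the sites with an unadjusted p under 0.05 were Igf1 and Ankrd28 9173. Of 821 values of single sites under the alternatives, 727 kept direction and side of the threshold, 55 turned direction, 33 passed to an unadjusted p over 0.05 and 6 to one under it. Mean editing kept its direction and its side of the threshold in every alternative run. Depth, cage, cDNA preparation and the animal behind each sample were not separated from treatment here.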

Other observations

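The files list 33 positions outside the 146 sites, of which 2 had enough reads to be compared in AMY. Both lie in the coding stretch of Htr2c, near sites A to D, and had an editing level of 0% in all 12 samples.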
